A study of Mus musculus with 6 samples.

Results

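The genes examined here are those that write and remove DNA methylation: Dnmt1, Dnmt3a, Dnmt3b, Dnmt3l, Uhrf1, Tet1, Tet2 and Tet3. They were taken by name, each with 5 kb on either side, and a cytosine position was used where all 6 libraries had at least 10 reads. This left 164 of the 233019 positions measured in the whole series, in 8 of the 24023 genes with a measured position within 5 kb. Neighbouring positions are not independent, and the 164 form 42 clusters whose members lie within 100 bases of the next. Methylation was measured in mouse DNA by reduced representation bisulfite sequencing (RRBS), in which DNA is cut with MspI at CCGG and CpG-rich fragments are converted with bisulfite and sequenced. The level of a position is the percentage of its reads that were methylated, and a mean level gives every position the same weight.

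All samples were labelled C57BL/6. Round spermatids, haploid germ cells formed by meiosis, came from testis and gave 1 library. The other 5 libraries came from androgenetic haploid embryonic stem cell (AG-haESC) lines, which carry chromosomes of paternal origin only. Replicates 1 and 2 of the wild type, WT1 and WT2, were taken at passages 31 and 18. Replicates 1 to 3 of the double knockout, DKO1, DKO2 and DKO3, were taken at passages 32, 31 and 29 and are labelled as lacking the H19 DMR and the IG-DMR, which control imprinted genes, and none of the 8 genes was a target. Culture was on feeders for all lines, in ES medium to which 2i, inhibitors of the MEK and GSK3 kinases, had been added. The titles of WT1 and DKO2 share the line name OG3, and those of WT2 and DKO3 share AGH-2. Each line is a single line, so a group of lines is not a group of animals.

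Dnmt1 copies methylation onto the new strand after replication, and Uhrf1 brings it to half-methylated CpGs. Dnmt3a and Dnmt3b add methylation to unmethylated DNA, and Dnmt3l, which has no activity of its own, stimulates them. Tet1, Tet2 and Tet3 oxidise methylcytosine, the first step of active removal. Several of these genes have alternative promoters with their own tissue: an oocyte start and a somatic start in Dnmt1, a long form and a short form (Dnmt3a2) in Dnmt3a, and an oocyte start of Dnmt3l that lies within the neighbouring gene Aire. In male germ cells methylation is laid down before meiosis, and ES cells grown in 2i are known to have low methylation.

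Promoter windows reached 1 kb to either side of the starts listed by RefSeq (GRCm38.p6, the assembly of mm10). Of the 164 positions, 90 lay at main promoters, 7 at alternative promoters, 58 in gene bodies and 9 in flanks. Tet3 held 52, Uhrf1 32, Tet1 27, Tet2 26, Dnmt3a 15, Dnmt1 7, Dnmt3b 3 and Dnmt3l 2. All 8 genes matched the promoter table, which gave 15 promoter sequences of 300 bases. Their median was 18 CpGs, against 7 over all 32851 promoters, and 10 of the 15 held CCGG, which 52.8% of all promoters hold. The Tet2 promoter had 57 CpGs, more than 99.8% of promoters, while that at the Dnmt1 oocyte start had 2 and those of Dnmt3l had 6, 4 and 3.

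Stretches of 3 promoters are shown first, those of Tet2 and Uhrf1 at main promoters and that of Tet3 at an alternative promoter. They hold only some of the measured promoter positions. Capitals mark the CpGs at which a position was measured in all libraries, and each sequence runs 5′ to 3′ on the strand of its gene. The Tet2 stretch, upstream of the inner of its listed starts, is chr3:133544391-133544488 on the minus strand, the Uhrf1 stretch is chr17:56304140-56304208 on the plus strand, and the Tet3 stretch is chr6:83441868-83441928 on the minus strand, upstream of the internal start. The measured CpGs in these stretches number 16, 6 and 3.
Tet2: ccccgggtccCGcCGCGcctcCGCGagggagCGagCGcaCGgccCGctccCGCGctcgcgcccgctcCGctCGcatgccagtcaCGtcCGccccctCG
Uhrf1: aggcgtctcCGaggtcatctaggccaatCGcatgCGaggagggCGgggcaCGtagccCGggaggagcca
Tet3: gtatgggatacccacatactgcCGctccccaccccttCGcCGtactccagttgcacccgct

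A second set shows the 150 bases upstream of starts that RRBS reached poorly or not at all, with every CpG in capitals. They are the outer of the 2 somatic starts of Dnmt1 (chr9:20952980-20953129, minus strand), its oocyte start (chr9:20959889-20960038, minus strand), the start of Dnmt3l within Aire (chr10:78042137-78042286, plus strand), the main start of Dnmt3l (chr10:78049692-78049841, plus strand) and the start of the short form of Dnmt3a (chr12:3891594-3891743, plus strand). Apart from the last, which holds CCGG 3 times, none of these stretches contains an MspI site. The outer somatic Dnmt1 stretch has 7 CpGs and the oocyte stretch 1. The promoter sequence of the inner somatic start, at 20952623, is richer, with 33 CpGs and CCGG 4 times in its 300 bases.
Dnmt1 outer somatic: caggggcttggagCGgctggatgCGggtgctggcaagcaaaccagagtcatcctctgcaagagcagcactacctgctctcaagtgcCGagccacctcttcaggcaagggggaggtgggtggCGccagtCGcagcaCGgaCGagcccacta
Dnmt1 oocyte: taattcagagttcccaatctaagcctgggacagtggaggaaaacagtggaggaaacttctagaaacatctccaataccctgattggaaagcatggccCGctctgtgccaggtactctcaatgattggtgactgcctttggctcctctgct
Dnmt3l within Aire: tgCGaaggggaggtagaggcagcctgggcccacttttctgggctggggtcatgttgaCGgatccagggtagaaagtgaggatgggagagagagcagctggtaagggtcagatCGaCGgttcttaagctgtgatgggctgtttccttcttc
Dnmt3l main: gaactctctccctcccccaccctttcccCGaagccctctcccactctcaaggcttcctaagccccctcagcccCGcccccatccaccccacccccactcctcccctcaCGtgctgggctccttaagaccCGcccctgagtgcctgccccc
Dnmt3a short form: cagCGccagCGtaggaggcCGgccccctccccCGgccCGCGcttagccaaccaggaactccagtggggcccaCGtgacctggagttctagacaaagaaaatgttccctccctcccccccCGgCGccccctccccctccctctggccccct

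The libraries held between 197728785 and 293920118 reads over cytosines, the largest number in round spermatids. At the 164 positions the depth lay between 10 and 3738 reads, with a median of 421. Promoters of genes methylated in the maternal genome were measured as a check for cells with maternal DNA, such as the feeders. At 9 of 14 such promoters with enough positions, the highest level in any line was 2.74%, in DKO2, and the mean in round spermatids was 0.118%. Some gene bodies among these genes differed. The 3 positions of Peg3 were at 51.2% in WT1, 33.6% in WT2, 8.97% in DKO1, 54.3% in DKO2 and 17.4% in DKO3, with round spermatids at 0.0547%. Others were higher in round spermatids: Mest (2 positions) at 100% against a line mean of 24.9%, Zim2 (1 position) at 98.2% against 3.95%, and Inpp5f (13 positions) at 15.4% against 3.12%. The bodies of Nnat, Kcnq1ot1 and Grb10 were low in every library, the highest at 2.71%. The promoter windows were set by listed starts, and whether they cover the regions methylated in the maternal genome was not checked. The part of other cells in the results was not tested.

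The level depended on the part of the gene: main promoters were nearly unmethylated in every library, and gene bodies were methylated in round spermatids and much less in the lines. Over all 164 positions the mean was 28.6% in round spermatids. The lines stood lower, WT1 at 7.59%, WT2 at 5.44%, DKO1 at 5.38%, DKO2 at 7.68% and DKO3 at 9.28%, with a mean of 7.07% ± 1.66 (SD, n = 5). No line reached the level of the round spermatid library. Over all measured positions of the genome the corresponding values were 22.4% and 5.93% ± 1.66 (SD, n = 5). The median depth was 589 reads at main promoters and 250.5 in gene bodies, and the difference of 21.5 points became 6.62 with reads pooled and 41.9 with each cluster weighted equally. Round spermatids are a single library, and with 1 library against 5 no permutation over samples can reach 0.05, so the tests at single positions compare libraries and not cell types.

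**Figure D1:**
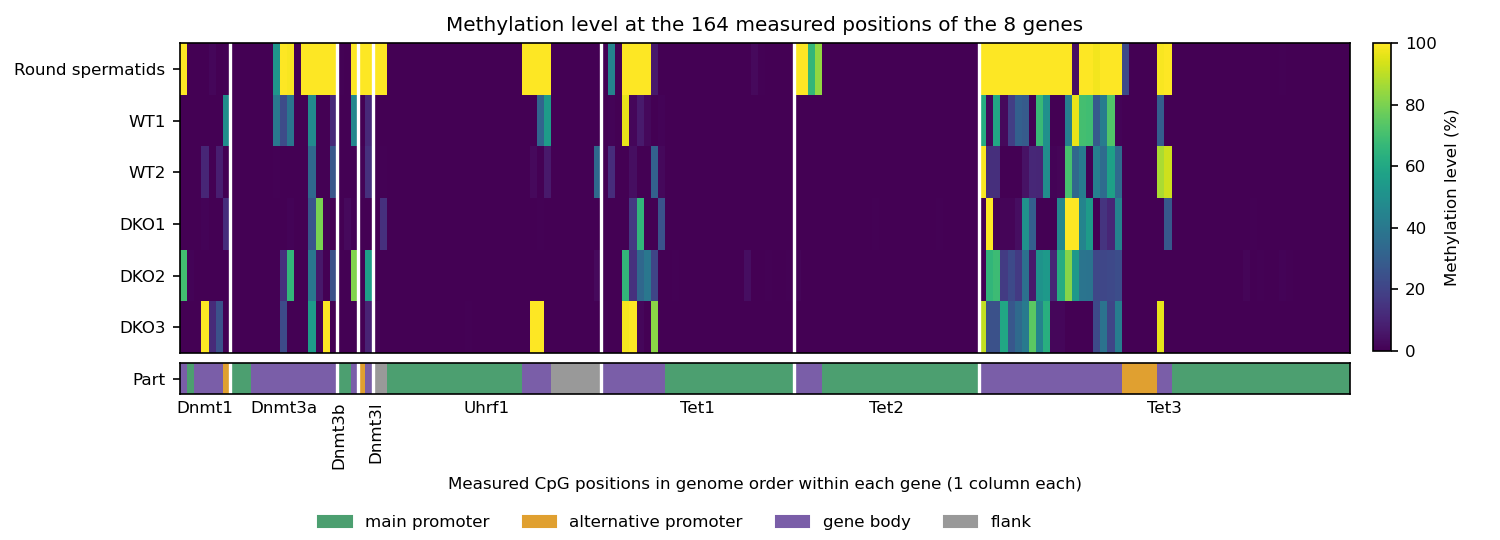
Methylation level (colour, 0 to 100%) of each of the 164 positions (columns, in genome order within a gene) in each of the 6 libraries (rows), with the part of the gene in the strip under them. Main promoter columns are dark in all libraries, and gene body columns are mostly bright in round spermatids. The lines show partial levels there that differ from line to line.

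At single positions, each line was compared with round spermatids by a two-sided Fisher's exact test, adjusted by Benjamini-Hochberg over all 233019 positions, and a position was called at an adjusted p under 0.05 with a difference of at least 25 points. Round spermatids were higher than all 5 lines at 34 of the 164 positions, or 20.7%, and these lay in 18 of the 42 clusters. The share over the whole genome was 17.3%, close to that of these genes. Against single lines, 46 positions were higher than in WT1 (20.9% of all positions in the genome), 45 than in WT2 (22.7%), 45 than in DKO1 (22.2%), 46 than in DKO2 (21.6%) and 40 than in DKO3 (21.9%). None was lower than in all 5 lines, a call made at 0.0485% of positions in the genome, and 5 were lower than in at least 1 line (5.9% in the genome). By line, the lower calls numbered 2 for WT1 (2.66% in the genome), 2 for WT2 (1.15%), 1 for DKO1 (1.52%), 1 for DKO2 (2.25%) and 2 for DKO3 (1.6%). The labels do not say whether the lines come from separate embryos, and the source of their spread was not tested.

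The main promoters that could be read were nearly unmethylated. Of the 90 positions, 86 were under 1% in every library and all 90 under 5%, and their mean was 0.0718% for round spermatids, where the lines had 0.0580% ± 0.0480 (SD, n = 5). The number higher in round spermatids than in all lines was 0, against 1.37% of promoter positions in the genome. The 22 positions at the Tet2 start stood at 0.0240% in round spermatids and between 0.0181% and 0.0615% in the lines. The 25 at the outermost Tet3 start were at 0.0291% and between 0.0170% and 0.135%, the 19 at Uhrf1 at 0.0458% and between 0.0152% and 0.0572%, and the 18 at Tet1 at 0.210% and between 0.00341% and 0.317%. In all of these the round spermatid value fell within the range of the lines. Dnmt3a, Dnmt3b and Dnmt1 had only 3, 2 and 1 positions at the main start, none above 2.48% in any library. With a lower demand, at least 10 reads in round spermatids and in 3 or more lines, these rose to 13, 12 and 9 positions, which had means of 0%, 0.0668% and 0.0239% in round spermatids. The main start of Dnmt3l had no position under either demand.

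Alternative promoters gave 7 positions, and they did not share a pattern. At the start of Dnmt3l within Aire, the position on chromosome 10 at 78042470, which is 183 bp after the start and also inside Aire, was at 100% in round spermatids (62 reads, Wilson 95% interval 94.2% to 100%). It was at 0% in WT1, 1.15% in WT2 and 0% in the 3 DKO lines, where 27 to 91 reads allow up to 11.1% in DKO3 and 3.53% or less in DKO1 and DKO2. The adjusted Fisher's exact p was 1.05e-22 or smaller against each line. The position was the 1 of 7 called higher in round spermatids than in all lines, a call made at 1.37% of promoter positions in the genome. Because it lies in both genes, it cannot be assigned to Dnmt3l alone.

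The oocyte start of Dnmt1 was covered at 1 position, 992 bp inside the gene (chromosome 9, 20958896), where round spermatids were at 0.565% and WT1 at 49.4%. DKO1 was at 13.2% and the other 3 lines at 0%. Its cluster also holds 4 gene body positions, at which round spermatids stood at 1.67% or less. Among these DKO3 was at 100% at 20958786 (79 reads), 12.1% at 20958846 and 24.8% at 20958852, and WT2 at 10.7%, 0% and 8.26%. The cluster was thus near 0% in round spermatids and partly methylated in different lines at different positions. At the 2 positions with the highest line, 20958786 and 20958896, round spermatids were called lower than 1 line each, DKO3 and WT1.

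The internal start of Tet3 had 5 positions. Of these, 4 lay in 1 cluster around the region printed above and were at 0% in all 6 libraries, from only 10 reads each in DKO2. These 4 also lie in the gene B230319C09Rik. The fifth, 83441389 on chromosome 6 and 289 bp inside the start, was at 22.5% in round spermatids (2889 reads). It was at 0% in WT1 and WT2 and in DKO1 and DKO3, and at 0.0933% in DKO2. Its adjusted Fisher's exact p was 3.26e-14 or smaller against each line, but the difference stayed under the 25 points of the call. The short form of Dnmt3a had no position in all 6 libraries. A single position read in round spermatids and at least 3 lines, 3891810 on chromosome 12, was at 0% in round spermatids and at 1.14% or less in the lines.

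**Figure D2:**
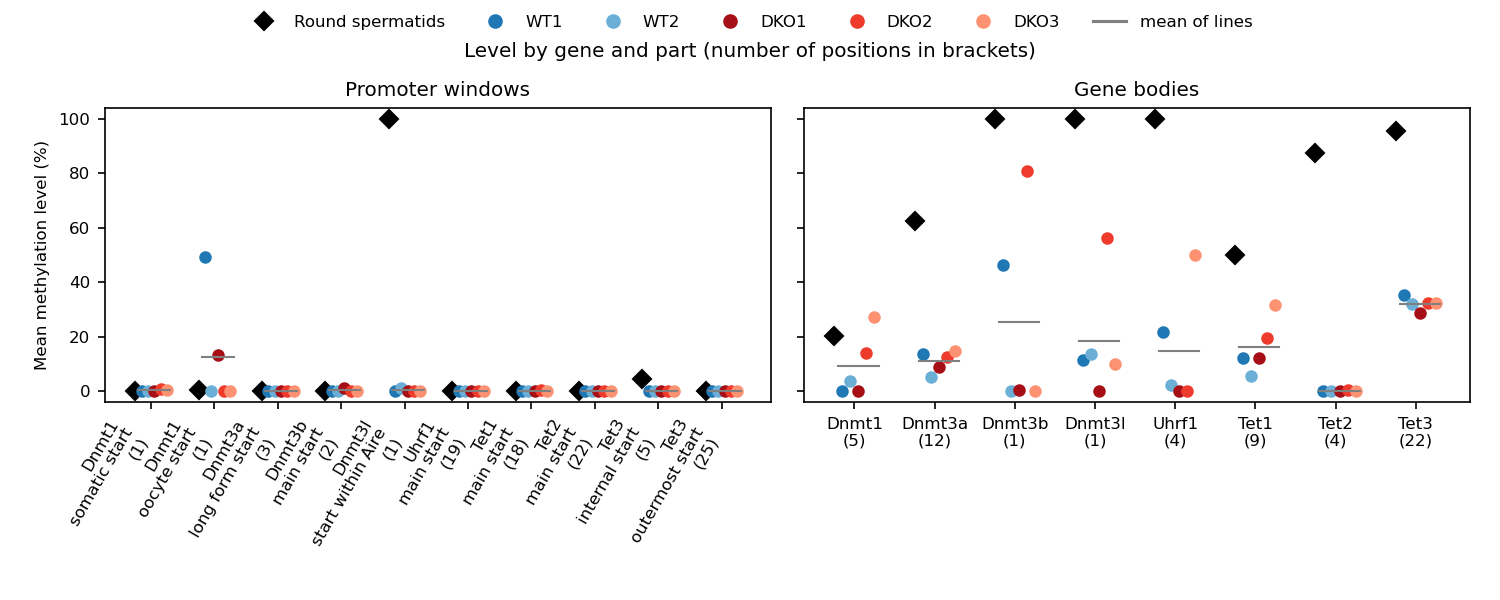
Mean methylation level (%) of each promoter window (left) and gene body (right) in round spermatids (black diamonds) and in each of the 5 lines (circles), with a grey bar for the mean of the lines and the number of positions in brackets. Promoter windows sit at the bottom apart from Dnmt3l within Aire and Dnmt1 oocyte, while the lines average 32.1% at the 22 positions of the Tet3 body and lie near 0% at the 4 positions of the Tet2 body.

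Gene bodies carried the difference. Their 58 positions had a mean of 75.1% in round spermatids, against 20.6% in WT1, 14.7% in WT2, 14.6% in DKO1, 21.5% in DKO2 and 26.1% in DKO3. The mean of the lines was 19.5% ± 4.90 (SD, n = 5), and over all gene body positions of the genome the values were 39.2% and 9.68% ± 2.72 (SD, n = 5). Round spermatids were called higher than all 5 lines at 31 of the 58 positions (53.4%), where the share over gene body positions of the genome was 30.7%. Positions above 90% in round spermatids made up 70.7% of the 58 and 35.4% of gene body positions of the genome, so the 2 sets differ in the level from which a call can arise. The 58 positions lie in 26 clusters, 22 of the positions are in Tet3, and no test of the genes as a group was made. Of 5476 genes with at least 3 positions in the body, the median was 66.7% in round spermatids and 12.4% in the lines.

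Levels were low near a start and higher beyond it. Within 1 kb of the nearest listed start, the 97 positions averaged 1.34% in round spermatids and 0.185% in the lines. Between 1 and 5 kb the 11 positions averaged 36.5% and 6.38%, between 5 and 20 kb the 22 positions 82.2% and 15.9%, and beyond 20 kb the 34 positions 69.0% and 21.3%. Positions at more than 90% in round spermatids numbered 1, 4, 16 and 23 in these classes.

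**Figure D3:**
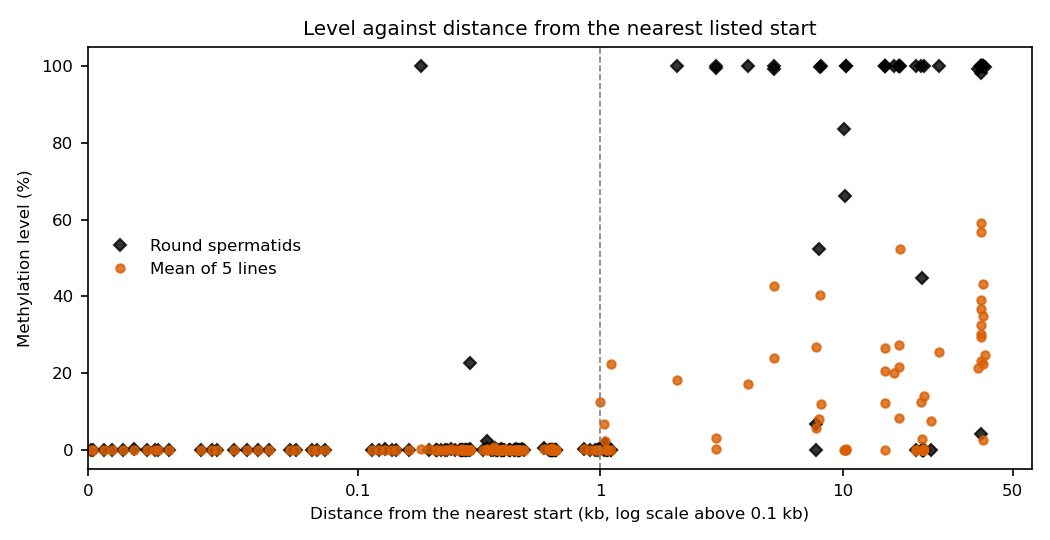
Methylation level (%) of each position against its distance from the nearest listed start (kb, log scale above 0.1 kb), with black diamonds for round spermatids, orange circles for the mean of the 5 lines and a dashed line at 1 kb. Within 1 kb a single diamond, Dnmt3l within Aire, stands at 100%, and beyond 1 kb most diamonds lie near 100% and most circles under 50%.

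Among the maintenance genes, Dnmt1 had 1 body position away from its starts, 20931167 on chromosome 9, 21456 bp from the somatic start. It was at 100% in round spermatids (157 reads), at 69.6% in DKO2 and at 0% in the other 4 lines. Round spermatids were higher than every line there. Uhrf1 had 4 body positions in a single cluster (56319186, 56319195, 56319207 and 56319211 on chromosome 17), all at 100% in round spermatids. In DKO3 they were at 0%, 100%, 100% and 0%, each with 167 reads. WT1 was at 0%, 0%, 32.1% and 54.8%, WT2 reached 6.73%, and DKO1 and DKO2 stayed under 1%. Levels above 10% in this cluster were thus found at some of the cytosines of WT1 and DKO3. At 56319186 all 5 lines were at 0%, with 167 to 592 reads, which allow up to 1.80% in DKO3 and 0.708% or less in the others.

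Flank positions, 9 in all, were measured at Uhrf1 and at no other of the 8 genes. In the upstream flank, at 56300337 round spermatids were at 100% (558 reads), DKO3 was at 1.46% and the other 4 lines at 0%. At 56300354, in the same cluster, round spermatids were at 99.6% and the lines at 0%, 0.763%, 13.9%, 0% and 0.366% in the order WT1, WT2, DKO1, DKO2, DKO3, which holds for such lists from here on. The cluster lies 2983 to 3000 bp before the nearest start of Uhrf1. Downstream, 7 positions were under 1% in round spermatids, and at 56327245, which lies in the neighbouring gene Kdm4b, WT2 was at 34.4% and the other lines at 2.66% or less.

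Among the de novo genes, Dnmt3a had 12 body positions in 9 clusters. They averaged 62.6% in round spermatids, 13.5% in WT1, 5.08% in WT2, 8.93% in DKO1, 12.5% in DKO2 and 14.8% in DKO3. The level of the lines varied from position to position. At 3871853 on chromosome 12 all 5 lines were at 0% and round spermatids at 100% (227 reads), while 3871824 in the same cluster was at 0% in all 6 libraries. The lowest depth in a line was 34 reads, in DKO2, which allow up to 8.82%. At 3883724, which also lies in the predicted gene Gm31623, the lines had their highest mean in the Dnmt3a body. They were at 48.0%, 33.7%, 26.1%, 39.6% and 54.9% from WT1 and WT2 to DKO1, DKO2 and DKO3, against 99.7% in round spermatids. At 3908020 DKO3 was at 99.7%, as high as round spermatids at 100%, and the other 4 lines were at 0%. DKO1 stood apart in the same way at 3895813, at 79.9% where DKO2 was at 6.25% and the rest at 0%.

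Dnmt3b and Dnmt3l were each measured at 1 body position. That of Dnmt3b, 153674222 on chromosome 2, was at 100% in round spermatids, 46.3% in WT1, 80.9% in DKO2, 0.542% in DKO1 and 0% in the other lines. Those 2 higher lines share the name OG3. At Dnmt3a position 3842990, named after its values were seen, WT1 and DKO2 were also the highest lines. They were at 38.9% and 66.0% there, and the other lines were at 1.11% or less. At some other positions WT1 and DKO2 differed, and a part of the shared name was not tested. At Dnmt1 position 20931167 WT1 was at 0% and DKO2 at 69.6%, and at Tet3 position 83369047 they were at 61.9% and 0%. That of Dnmt3l, 78057397 on chromosome 10, was at 100% in round spermatids, 11.5% and 13.7% in the WT lines and 0%, 56.2% and 9.95% in the DKO lines. Both Dnmt3l positions were called higher in round spermatids than in all lines, and that of Dnmt3b was not, since DKO2 lay within 25 points. Such calls were made at 1.37% of promoter positions and 30.7% of gene body positions in the genome.

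Tet3 had 22 body positions in 6 clusters, with a mean of 95.5% in round spermatids. The lines stood at 35.3% and 31.9% (WT1 and WT2) and at 28.7%, 32.4% and 32.2% (DKO1, DKO2 and DKO3), a mean of 32.1% ± 2.35 (SD, n = 5) that exceeded that of 94.8% of the 5476 genes. The round spermatid mean exceeded that of 72.1% of the same genes. The means of the lines lay close together although their positions did not. Each line had Tet3 body positions at 0%, and its highest was 96.8% for WT1, 99.3% for WT2, 100% for DKO1, 82.0% for DKO2 and 96.3% for DKO3. At 83369058, for example, DKO1 was at 100% and WT1 at 1.96%, and at 83369047 the same lines were at 0% and 61.9%. Round spermatids were called higher than all 5 lines at 15 of the 22 (68.2%), which lay in 4 of the 6 clusters. The share of such calls over gene body positions of the genome was 30.7%. Of the 22 positions, 21 were at 90% or more in round spermatids.

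A single Tet3 position went the other way. At 83404563 on chromosome 6 round spermatids were at 4.07% (246 reads, Wilson 95% interval 2.22% to 7.32%), while the 7 other positions of its cluster were between 98.2% and 100% there. The lines were at 96.8%, 33.8%, 100%, 53.3% and 0%. Round spermatids were called lower than WT1, WT2, DKO1 and DKO2, and DKO3 was the exception, with all 4 of the first positions of the cluster at 0%. Without DKO3, this position would be lower in round spermatids than in all lines. Among neighbouring positions read equally often, pairs at least 50 points apart were 2.17% of all such pairs of the round spermatid library and 3 of 68 in these genes.

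The 4 positions of the Tet2 body that were read in all 6 libraries were near 0% in the lines. These positions, at 133534151, 133534157, 133534166 and 133534282 on chromosome 3 and 10108 to 10239 bp after the inner start, were at 100%, 100%, 66.2% and 83.6% in round spermatids. WT1, WT2, DKO1 and DKO3 were at 0% at all 4, and DKO2 was at 1.27%, 0%, 0% and 0.275%. The mean was 87.5% for round spermatids, where the lines had 0.0770% ± 0.172 (SD, n = 5). At 133534157 the lines had 91 to 604 reads, and their 0 allows 0.497% to 3.30%. Only 7.74% of the 5476 genes had a lower mean in the lines, and 64.1% had a lower mean in round spermatids. All 4 positions were called higher in round spermatids than in all lines, a call made at 30.7% of gene body positions in the genome. They come from 2 clusters and do not describe the rest of the gene, which spans 133463677 to 133545136. Another Tet2 stretch, a tile of 3 positions from 133468001 to 133468500 that was read in the 5 lines but not compared with round spermatids, was at 13.0% in WT1, 0.0235% in WT2, 10.9% in DKO1, 42.6% in DKO2 and 13.2% in DKO3.

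The Tet1 body was at 50.2% in round spermatids and at 12.2%, 5.50%, 12.0%, 19.4% and 31.5% in the lines over 9 body positions. Its cluster of 4, at 62870221, 62870258, 62870345 and 62870389 on chromosome 10, was at 100% in round spermatids and at 27.0%, 0.909%, 20.6%, 38.4% and 50.1% in the lines. DKO3 was at 98.8%, 100%, 1.72% and 0% at the 4 positions, and WT1 at 96.7% at the first and 7.11% or less at the rest. At 62879589 DKO3 was at 82.5% and round spermatids at 6.67%, from 15 reads only. These positions also lie in the predicted gene Gm51805, so for each of them the annotation names both genes.

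The level of the lines was also read at the 44 positions above 90% in round spermatids, which make up 26.8% of the set and 19.7% of the genome. There the means were 23.9% for WT1, 17.2% for WT2, 16.7% for DKO1, 26.6% for DKO2 and 29.5% for DKO3, or 22.8% ± 5.69 (SD, n = 5). Over the 46040 such positions of the genome, the means were 27.0%, 14.2%, 17.7%, 24.5% and 17.4% in the same order. The mean of the lines there was 20.2% ± 5.34 (SD, n = 5), near that of these genes. Of the 44, 6 were under 10% in all 5 lines, 3 of them at 0% in all, and 3 were at 10% or more in all. A level of 90% or more was found in at least 1 line at 10 positions, 7 of them in DKO3. Tet3 supplied 21 of the 44, with line means between 25.3% and 33.8%, and Dnmt3a 7, with means between 8.62% and 25.3%. The choice of these positions used the round spermatid level, so the lower level of the lines at them is a description.

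**Figure D4:**
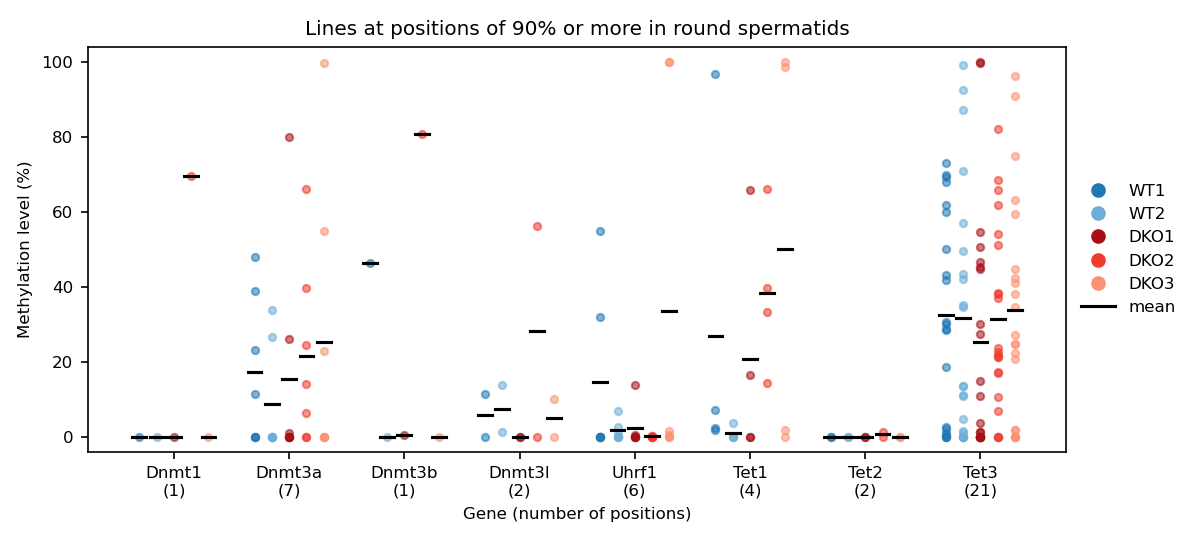
Methylation level (%) of each line (coloured points, with a black bar for the mean) at the positions at 90% or more in round spermatids, by gene, with the number of positions in brackets. The Tet3 means of the 5 lines lie between 25.3% and 33.8%, those of the 2 Tet2 positions near 0%, and single lines stand apart in the other genes.

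WT and DKO lines overlapped at these genes. Over all 164 positions WT lines had 6.51% ± 1.52 (SD, n = 2) and DKO lines 7.45% ± 1.96 (SD, n = 3), a difference of 0.937 points with an exact permutation p of 0.5 (two-sided). With 10 splits of 2 against 3 lines the smallest p is 0.1. By gene, the exact p lay between 0.3, for Tet1 (2.96% ± 1.59 and 7.08% ± 3.27, SD, n = 2 and 3), and 1, for Dnmt3l and Uhrf1. The sign over all positions turned without WT2, at -0.137 points. In 500 bp tiles tested over the genome by edgeR's quasi-likelihood test, 0 of 29763 were called (0% in each direction), with 662 at an unadjusted p under 0.05 and 4 called by limma. Of 21 tiles in these genes, 0 were called by either tool, and 0 had an unadjusted p under 0.05 by either. The tile of the Tet1 cluster had the lowest p of the set, 0.112 by edgeR (adjusted p = 1), with 9.60% and 0.833% in the WT lines and 22.4%, 34.4% and 73.3% in the DKO lines. A lack of calls does not show that the lines were alike.

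Genes whose bodies were most like those of 2 members were found among 1773 genes with at least 10 body positions, by the mean absolute difference over the 6 libraries. For Tet3 they were Greb1, at 3.57 points, Cox10, at 3.85, and Tspan9, at 4.10. For Dnmt3a they were Gse1, at 2.31 points, Slc4a5, at 2.57, and Macrod1, at 2.70. Greb1, for example, stood at 91.4% in round spermatids and between 24.2% and 36.2% in the lines.

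Other genes of the pathway were counted in the same way. A promoter or body mean, from at least 3 positions, was counted when round spermatids differed from the mean of the lines by 25 points or more. Over all genes this held for 2.51% of promoters in the higher and 0.107% in the lower direction. It held for 0 of 8 measured promoters of other writers and cofactors, 0 of 10 of removal genes and 0 of 3 of readers, in either direction. Gene bodies were higher in round spermatids in 3 of 3 writers and cofactors, 2 of 4 removal genes and 1 of 2 readers, against 63.1% of all genes, and none was lower (0.292% of all genes). These counts come from few genes and their shares lie around that of all genes, so they say nothing particular to the pathway. Setd2, which places the H3K36 mark that Dnmt3 enzymes read, was at 96.6% against 14.8% ± 20.5 (SD, n = 5). Usp7, a partner of Dnmt1 and Uhrf1, was at 91.7% against 22.1% ± 12.4 (SD, n = 5), and Ehmt2, the histone methyltransferase G9a, at 99.8% against 19.5% ± 11.5 (SD, n = 5). Parp1, which acts in base excision repair, was at 95.8% against 36.6% ± 14.5 (SD, n = 5), and Idh2, which makes the Tet cofactor 2-oxoglutarate, at 68.1% against 31.1% ± 14.6 (SD, n = 5). Zbtb38, a methyl-CpG binding factor, was at 99.9% against 12.0% ± 7.64 (SD, n = 5). The 3 measured bodies that were not counted, named after their values were seen, were those of Smug1, a DNA glycosylase gene, at 1.51% against 12.8% ± 7.89 (SD, n = 5), Gadd45g at 12.1% against 1.87% ± 2.99 (SD, n = 5) and Cxxc4 at 0% against 0.00861% ± 0.0192 (SD, n = 5).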

How the data were processed

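RRBS libraries of 2 WT lines, 3 DKO lines and 1 round spermatid sample were used. Per the submitters' processing notes, the authors used Bismark 0.12.2 and the build mm10; trimming, duplicate removal and other settings were not given in the sources used here. The deposited files give, per cytosine, a count of methylated and of unmethylated reads and the level as a fraction; the fraction equalled the ratio of the counts at every position. Of 116301 positions within RefSeq promoter sequences, 100% were CpG cytosines, on either strand. The members, gene lists and tests were chosen with earlier results of these data known.

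Positions with at least 10 reads in all 6 libraries were kept. Promoter windows reached 1 kb to either side of listed starts, with starts within 1000 bp joined; the rest of the gene is the body, so exons, introns and UTRs were not assigned. The roles of starts come from general knowledge. Promoter sequences are from RefSeq (GRCm38.p6). Reads were counted at every cytosine they cover and, being PCR products with no molecular identifiers, are not independent, so Wilson intervals (95%) and the limits of a count of 0 (3 reads over the depth) cover counting error only.

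Fisher's exact test (Python 3.11.15, numba 0.67.0) compared round spermatids with each line. WT and DKO lines were compared by exact permutation of means and, on 500 bp tiles with at least 3 positions, by edgeR 4.0.16 (common dispersion), with limma 3.58.1 as an alternative. The scripts were tested on simulated data with known changes. Simulated tiles were raised by 30 or 80 points at several spreads, all below that of the real tiles (dispersion 0.954). At the widest, a dispersion of 0.519, edgeR recovered 0% of both and limma 40% and 97%. At 0.160 edgeR recovered 69% and 88% and limma 100% of both, and at 0.00471 both tools recovered 100%. The real tiles varied more than any of these, so a lack of tile calls by either tool carries little weight. The named positions are, in each gene and part, that with the widest gap between round spermatids and the nearest line and that with the highest mean of the lines; further positions were named after their values were seen, where a cluster or a call turns on them. Alternatives were other depth minimums, window sizes, sizes of difference, pooled reads, clusters, each line left out, and a block for shared line names. Of 31233 tiles, those at 0 or 100% in all lines were left out.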

Additional observations from a re-analysis of the deposited data

Results flagged for a closer look

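In 12 of 31 means over the 5 lines, a single line lay farther from the rest than Dixon's 95% critical value allows, where chance flags about 1 in 20 groups. That rate does not apply where the other 4 lines are at 0%, since a single methylated read is then enough. The value at the internal Tet3 start rests on 1 of 1072 reads, that at the start of Dnmt3l within Aire on 1 of 87, and that of the Tet2 body on 1 read at each of 2 positions. The value at the Dnmt1 somatic start rests on 4 of 439 reads of DKO2. At the Tet1 start, 68 of 1761 reads at position 62886958 carry most of the DKO2 value. At the Dnmt3b start, 13 of 525 reads at position 153650079 carry the DKO1 value. Whether such low levels exceed errors of conversion or sequencing was not tested. The means share positions and lines, and both Dnmt3l values of DKO2 rest on position 78057397. No reason was tested for the 12 flagged means. DKO2 stood apart highest in 6 of them: over Dnmt3l (28.1%, the other lines at 7.42% or less), the Dnmt3l body (56.2% against 13.7% or less), the Dnmt1 somatic start (0.911% against 0.226% or less), the Tet1 start (0.317% against 0.0491% or less), the Tet2 body (0.385% against 0%) and the internal Tet3 start (0.0187% against 0%). WT1 stood apart at the Dnmt1 oocyte start (49.4% against 13.2% or less) and so over alternative promoters (7.06% against 1.88% or less). WT2 stood apart in the downstream flank of Uhrf1 (4.91% against 0.380% or less) and at the start of Dnmt3l within Aire (1.15% against 0%). DKO1 stood apart in the upstream flank of Uhrf1 (6.93% against 0.913% or less) and at the Dnmt3b start (1.24% against 0.142% or less).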

How the results depend on the processing

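Round spermatids stayed above the mean of the lines over all positions, alternative promoters and gene bodies under every setting tried, but the size moved. Over alternative promoters the difference of 15.8 points became 36.8 with at least 20 reads, and 20.4 and 7.33 with windows of 0.5 and 2 kb. By alternatives chosen after seeing the data it became 27.6 with clusters weighted equally and 7.58 with round spermatids and at least 3 lines covered. It rests on 7 positions, and mostly on Dnmt3l position 78042470, at 100% in round spermatids and 0.230% over the lines. Of the others, 4 were at 0% in all 6 libraries. Tet3 position 83441389 was at 22.5% and 0.0187%, and at the Dnmt1 oocyte start round spermatids were lower, at 0.565% and 12.5%. Over gene bodies 55.6 points became 41.7 and 63.8 with windows of 0.5 and 2 kb. Over all positions 21.5 points became 6.62 with reads pooled, 41.9 with clusters weighted equally and 19.2 with the lower demand on lines. The 34 positions higher than in all 5 lines became 18 at a difference of 50 points, 18 with clusters counted once, and 35 to 39 with 1 line left out; the positions lower than in all lines were 0 to 1 with 1 line left out, the 1 without DKO3. Positions lower than in single lines were few: DKO3 had 2, which became 1 with at least 20 reads and 4 at 10 points; DKO1 had 1, which became 2 at 10 points; and at 50 points WT1 went from 2 to 1, WT2 from 2 to 0 and DKO2 from 1 to 0. The difference between DKO and WT over all positions ran from -0.137 to 2.01 points with 1 line left out. By gene that range was -1.11 to 5.59 for Dnmt3a, -7.19 to 9.31 for Dnmt3b (-6.04 without WT2), -4.09 to 9.96 for Dnmt3l and -1.76 to 1.35 for Uhrf1 (-0.417 without WT2), and for Uhrf1 it was -0.110 with at least 5 reads. Pairing lines by the shared names OG3 and AGH-2 as a replicate block gave 1.97 points over all positions (0.0988 for OG3 and 3.84 for AGH-2) and 2 called tiles in the genome, none in these genes, where limma gave 4; DKO1 has no partner. Whether the names pair the samples rests on the titles alone. The causes of these shifts were not tested. Depth was low at some positions, with 10 reads in DKO2 at 4 positions of the internal Tet3 start, 11 in DKO3 at Dnmt3a position 3815137 and 15 in round spermatids at 2 Tet1 positions.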
